A study of Homo sapiens with 15 samples.

Results

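Collagens, proteoglycans and the enzymes that crosslink them are the structural genes of the extracellular matrix, and 57 of them were followed in astrocytes induced to make a mutant IDH1. The members were chosen by symbol: collagen chains other than COL1A2, the lysyl oxidases, fibulins, fibrillins, microfibril-associated proteins and thrombospondins, and a fixed set of further matrix genes such as BGN, VCAN, TNC, FN1 and SPARC. The 57 members were found among 16324 genes listed in either of the count tables, 57 in the day 7 table and 54 in the day 3 and day 7 table. COL3A1, COL5A3 and COL11A1 were in the day 7 table alone. DCN, LUM and ELN, which the choice also names, are not among the listed genes. MFAP1, MFAP3 and MFAP3L carry a matching symbol but were not classed here with the elastic fibre and microfibril genes, and they are kept apart.

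The cells were immortalized human astrocytes (IHA), an established fetal line that carries SV40, and the 15 samples were bulk cultures profiled by MARS-seq, which counts the 3′ ends of transcripts with unique molecular identifiers (UMIs). Doxycycline at 1 µg/ml switched on mutant IDH1, which the design text gives as R132H. The normal enzyme produces alpha-ketoglutarate in the cytosol, whereas the mutant produces 2-hydroxyglutarate. The groups were 4 samples at day 3 of doxycycline, 5 at day 7 and 6 untreated. Titles carry a tag, b1 or b2, whose meaning is not stated and which was taken here as a batch: day 3 had 4 b2 samples, day 7 had 4 b2 and 1 b1, and the untreated cells had 3 b2 and 3 b1. The genotype label reads WT IDH1 for all samples, no sample is labelled as doxycycline without the inducible gene, and the untreated samples carry no day of culture. The labels do not say that samples were separate cultures, so p-values measure only the spread between these samples, which may be technical.

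The extracellular matrix is the protein scaffold that cells secrete around themselves. Collagen chains are folded as triple helices in the endoplasmic reticulum, exported, cut and then crosslinked by lysyl oxidases, which are copper enzymes that oxidize lysines of collagen and elastin. Hydroxylation of collagen prolines and lysines needs alpha-ketoglutarate as a cosubstrate. In the brain, fibrillar collagen is sparse outside vessels and meninges, and astrocytes contribute basement membrane, tenascin and proteoglycans.

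Libraries of the day 7 table held 2573290 to 5567651 UMIs each, and those of the day 3 and day 7 table held 1816599 to 4656705. Levels below are CPM, UMI counts scaled to a library's TMM-adjusted total. They are not divided by transcript length, since each transcript is counted by a 3′ tag, and the counts of some members differed greatly between the tables, so levels are compared within a gene and a table. In these bulk samples, fewer cells that express a gene and less RNA per cell cannot be told apart. Of 8 astrocyte markers, GFAP, AQP4, ALDH1L1 and SLC1A2 were not among the listed genes, S100B reached at most 1.46 CPM and SLC1A3 at most 6.07 CPM in the day 7 table, while GJA1 had 32.6 to 57.2 CPM and SOX9 14 to 41.9 CPM. The listed astrocyte markers summed to 90.5 to 98.9 CPM in day 7 b2 libraries against 59.6 to 89.6 CPM in untreated b2 libraries, and to 73.7 CPM in the day 7 b1 library against 83.1 to 87.2 CPM in untreated b1 libraries. A list of 9 fibroblast and pericyte markers, 8 of them listed, summed to 630 to 746 CPM in day 7 b2 libraries against 1170 to 1290 CPM in untreated b2 libraries, and to 727 CPM in the day 7 b1 library against 1150 to 1230 CPM in untreated b1 libraries. That list holds COL1A2 and CSPG4, which also appear below. Its sum follows its most abundant genes. TAGLN had 255 to 781 CPM over the libraries of that table. COL1A2 had a mean of 84.3 CPM at day 7 in b2 against 322 CPM untreated. The sum does not show whether every marker of the list fell. Markers of neurons, microglia, endothelium, oligodendrocytes and keratinocytes summed to at most 19.4 CPM per list in that table, and those listed at some level were SNAP25, SYT1, CSF1R, TIE1, MBP, KRT14 and EPCAM. TIE1, of endothelium, had 6.91 to 10.8 CPM in day 7 b2 libraries against 13.8 to 19.4 CPM in untreated b2 libraries, and 9.17 CPM in the day 7 b1 library against 12.2 to 15.7 CPM in untreated b1 libraries. MBP, of oligodendrocytes, had 9.59 to 10.4 CPM in day 7 b2 libraries against 13.7 to 14.8 CPM in untreated b2 libraries, and 14.7 CPM in the day 7 b1 library against 15.3 to 18.9 CPM in untreated b1 libraries. The part of these lists in the results was not tested.

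At day 7 of doxycycline more matrix genes were called lower than higher. Of 50 members tested in the day 7 table with the tag as a term, 23 were called at an adjusted p under 0.05, where 15.7% of all 12449 genes were called. Log2 changes are given ± their standard error, from edgeR's quasi-likelihood test with Benjamini-Hochberg adjustment over all genes tested. The 17 that fell make up most of them, against 7.28% of all genes, and 6 rose, against 8.43% of all genes. The median log2 change was -0.15 over the 50 members and -0.02 over all genes tested. COL11A1, MFAP5, COL8A1, BGN, THBS1, COL9A2, COL8A2, COL5A2, FBLN7, FBLN2, LOX, LOXL1, COL6A3, FBN1, LOXL3, FN1 and FBLN1 fell, while COL17A1, COL22A1, TNC, COL7A1, COL18A1 and CRTAP rose. All members together took 0.472% to 0.505% of a library's UMIs at day 7 in b2 against 0.584% to 0.604% without doxycycline, and 0.612% at day 7 in b1 against 0.685% to 0.701% without doxycycline. The ranges of the b2 groups did not overlap, and the single day 7 b1 library lay below the 3 untreated b1 libraries. These shares are of unscaled UMIs, and the day 7 b1 library had the lowest TMM factor of its table, 0.9084. In b1, FN1 had 627 CPM at day 7 against a mean of 1092 CPM untreated, and COL6A1 had 539 CPM against 349 CPM. The parts of scaling and of single abundant genes in the b1 share were not tested.

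Among the called members, THBS1 and COL18A1 had b2 groups that overlapped, and COL8A2 and FBLN7 had a day 7 b1 library that was not below all untreated b1 libraries. Below, no overlap in b1 means only that the 1 day 7 library lay outside the range of the 3 untreated ones. Members that were not called, such as COL1A1, SPARC and THBS3, did so as well, and the share of all genes was not counted. Counts by class at day 7 stand beside the 7.28% of all genes that fell and the 8.43% that rose. The plot of changes by role shows that the falls lay in most classes of matrix gene.

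**Figure D1:**
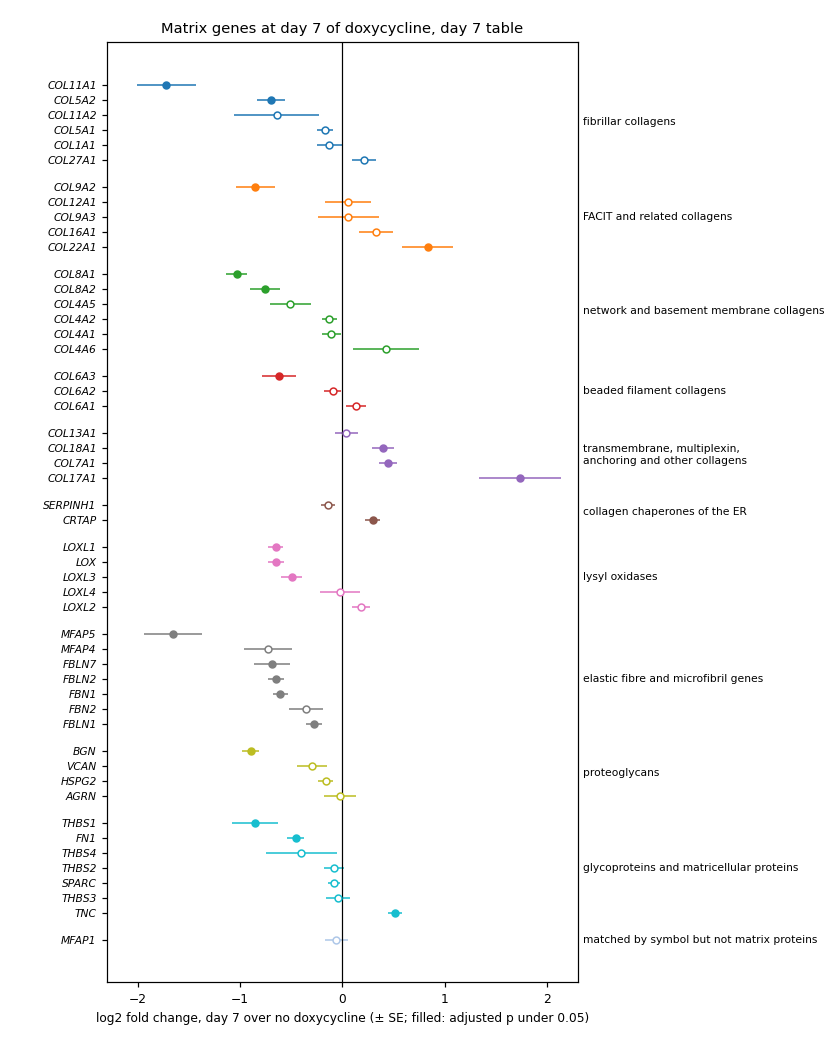
Log2 fold change of each tested matrix gene at day 7 of doxycycline over no doxycycline (x axis, with its standard error), grouped by role down the page; filled points passed an adjusted p of 0.05. COL8A1 (-1.04 ± 0.10) and BGN (-0.89 ± 0.08) were called below 0, and TNC (0.52 ± 0.07) and COL7A1 (0.45 ± 0.09) above it.

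Promoter sequence is given for 5 members that the results turn on: BGN, which had the smallest adjusted p among the proteoglycans, COL8A2 and TNC, which had already moved by day 3, and COL4A1 and COL4A2, a pair of neighbouring genes read in opposite directions that both fell between day 3 and day 7. Each window runs 250 bases before and 50 after the RefSeq transcript start on GRCh38.p14, 5′ to 3′ on the gene's strand. Capitals mark matches to the motifs searched.
BGN, chrX:153494730-153495029, plus strand: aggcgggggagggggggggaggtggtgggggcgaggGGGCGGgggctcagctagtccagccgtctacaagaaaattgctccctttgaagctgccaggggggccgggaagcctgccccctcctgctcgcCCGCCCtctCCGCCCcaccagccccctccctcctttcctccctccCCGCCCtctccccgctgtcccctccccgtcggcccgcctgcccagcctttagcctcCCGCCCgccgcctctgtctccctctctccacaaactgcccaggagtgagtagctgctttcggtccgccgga
COL8A2, chr1:36125173-36125472, minus strand: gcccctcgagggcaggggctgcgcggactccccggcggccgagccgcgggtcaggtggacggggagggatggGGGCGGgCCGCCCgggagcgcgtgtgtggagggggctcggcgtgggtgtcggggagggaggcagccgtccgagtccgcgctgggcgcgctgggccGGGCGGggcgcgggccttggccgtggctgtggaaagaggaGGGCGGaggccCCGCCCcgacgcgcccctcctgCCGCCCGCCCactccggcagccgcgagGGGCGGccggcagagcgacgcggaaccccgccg
TNC, chr9:115118108-115118407, minus strand: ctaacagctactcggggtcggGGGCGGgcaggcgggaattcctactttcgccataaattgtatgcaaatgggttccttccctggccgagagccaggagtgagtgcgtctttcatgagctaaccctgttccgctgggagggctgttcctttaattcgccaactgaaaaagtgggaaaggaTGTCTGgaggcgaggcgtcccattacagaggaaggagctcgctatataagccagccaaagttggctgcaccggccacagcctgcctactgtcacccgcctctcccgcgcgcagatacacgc
COL4A1, chr13:110307108-110307407, minus strand: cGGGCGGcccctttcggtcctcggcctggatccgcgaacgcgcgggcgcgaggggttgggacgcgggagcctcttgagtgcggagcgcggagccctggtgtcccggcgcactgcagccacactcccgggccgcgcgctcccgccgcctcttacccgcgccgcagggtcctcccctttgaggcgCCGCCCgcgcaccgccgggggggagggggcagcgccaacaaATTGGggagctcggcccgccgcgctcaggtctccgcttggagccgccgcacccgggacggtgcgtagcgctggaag
COL4A2, chr13:110307034-110307333, plus strand: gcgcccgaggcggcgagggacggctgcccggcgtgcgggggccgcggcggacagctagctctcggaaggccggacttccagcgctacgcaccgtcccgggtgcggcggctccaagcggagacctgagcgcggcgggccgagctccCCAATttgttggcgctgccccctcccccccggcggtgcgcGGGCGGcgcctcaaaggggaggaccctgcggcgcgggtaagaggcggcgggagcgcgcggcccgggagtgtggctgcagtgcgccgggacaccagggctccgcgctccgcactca
The COL4A1 and COL4A2 transcript starts lie 127 bases apart and their windows share 226 bases, including a single CCAAT box that both windows hold, on opposite strands. TNC alone among these 5 held CAGACA, the SMAD motif, read here as its reverse complement TGTCTG.

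The TATA motif was searched as TATAAA. The CCAAT box was searched by those letters. The AP-1 motif was TGANTCA, the SMAD motif, as above, and the Sp motif GGGCGG. The NF-kB motif has 10 letters and is given by name. Both strands were searched and overlapping matches were kept. RefSeq gave 61 windows for 46 of the members. Sp matches were in 41 of these windows (67.2%), against 45.0% of all 35116 windows given. CCAAT was in 31.1% against 34.6%, the TATA motif in 13.1% against 11.5%, SMAD in 11.5% against 16.9%, AP-1 in 3.28% against 7.71% and NF-kB in 1.64% against 0.558%. The members' windows had a median GC content of 66.3%, against 58.7% over all windows. These matches describe letters in a window and were not tested.

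Fibrillar collagens form the load-bearing fibres of connective tissue. Of 6 tested, 2 fell and 4 did not pass. COL5A2, a chain of the collagen that sets fibre diameter, had 17.4, 12.1, 17.4 and 17.6 CPM in day 7 b2 libraries against 32.0, 23.9 and 30.2 CPM in untreated b2 libraries, and 19.9 CPM in the day 7 b1 library against 26.0, 28.8 and 23.7 CPM in untreated b1 libraries. Its log2 change was -0.70 ± 0.14, with an adjusted p of 0.00114, and the day 7 values lay below the untreated values within each tag. Its partner chain COL5A1 gave -0.17 ± 0.08 and did not pass at day 7 (0.156). COL11A1, a cartilage-type fibrillar chain present here at a few CPM, had 0.802, 1.15, 0.698 and 0.669 CPM at day 7 in b2 against 2.67, 3.10 and 3.60 CPM untreated, and 3.19 CPM at day 7 in b1 against 8.09, 8.18 and 9.76 CPM untreated. Its log2 change of -1.72 ± 0.29 was the most negative of the members that passed (adjusted p 0.000302). COL11A2 (-0.64 ± 0.41) and COL27A1 (0.21 ± 0.12) did not pass. COL27A1, a fibrillar chain known from cartilage, ranged over 19.7 to 29.4 CPM in the day 7 table.

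COL1A1, the major chain of type I collagen, had 278, 199, 186 and 179 CPM in day 7 b2 libraries against 268, 238 and 259 CPM in untreated b2 libraries, and 863 CPM in the day 7 b1 library against 803, 780.2 and 692 CPM in untreated b1 libraries. It did not pass, at -0.13 ± 0.12 with an adjusted p of 0.537 and a 95% interval of -0.39 to 0.14. COL1A2, its partner chain in the type I trimer and not a member, changed by -1.85 ± 0.08 in the same fit (adjusted p 8.58e-14). The ratio of COL1A1 to COL1A2 UMIs was 1.97 to 3.44 at day 7 in b2 against 0.775 to 0.808 untreated, and 13.0 at day 7 in b1 against 3.14 to 4.57 untreated. In the other table the ratio was 0.738 to 0.795 without doxycycline, 1.19 to 1.39 at day 3 and 1.88 to 3.29 at day 7, and no 2 of these ranges overlapped. The ratio compares UMI counts of the chains and carries no test of its own.

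Network collagens form sheets and lattices. Of 6 tested, 2 fell and 4 did not pass. COL8A1 on chr3:99638475-99799226 and COL8A2 on chr1:36095236-36125220 (gene spans, GRCh38) encode the chains of the hexagonal lattice of Descemet's membrane and vessel walls. COL8A1 had 35.0, 31.4, 35.4 and 27.9 CPM in day 7 b2 libraries against 61.7, 65.4 and 61.6 CPM in untreated b2 libraries, and 20.3 CPM in the day 7 b1 library against 55.9, 50.7 and 48.1 CPM in untreated b1 libraries. All day 7 values lay below all untreated values, and the change was -1.04 ± 0.10 (adjusted p 1.97e-07), a 2.05-fold fall. COL8A2 had 12.0, 13.8, 13.3 and 13.2 CPM at day 7 in b2 against 25.0, 24.8 and 26.6 CPM untreated, and 12.8 CPM at day 7 in b1 against 12.5, 14.0 and 12.0 CPM untreated. It fell by 0.76 ± 0.15 on the log2 scale (adjusted p 0.00106), with b2 ranges apart and the b1 library inside its untreated range.

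COL4A1 and COL4A2, the common chains of basement membranes, did not pass at day 7 with both tags in the fit (-0.11 ± 0.09 and -0.13 ± 0.07). COL4A1 had 147, 149.5, 151 and 157 CPM at day 7 in b2 against 206, 181 and 170.0 CPM untreated, and 164 CPM at day 7 in b1 against 120.1, 135 and 134 CPM untreated. COL4A2 had 279, 262, 255 and 297 CPM at day 7 in b2 against 288, 307 and 346 CPM untreated, and 209.6 CPM at day 7 in b1 against 204, 186 and 221 CPM untreated. COL4A1 lay lower at day 7 in b2 and higher in b1, and the COL4A2 ranges overlapped in each tag. The rarer chains COL4A5 (-0.51 ± 0.20) and COL4A6 (0.43 ± 0.32) did not pass.

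The beaded filament collagen VI links cells to the fibrous matrix, and 1 of its 3 chains fell. COL6A3, the long chain, stayed at or under 17.0 CPM in the day 7 table and fell by 0.62 ± 0.17 on the log2 scale (adjusted p 0.0133). Without the day 7 b1 library the value was -0.46, with an adjusted p of 0.0501. COL6A1 (0.14 ± 0.10) and COL6A2 (-0.10 ± 0.08) did not pass. COL6A1 ranged over 313 to 539 CPM and COL6A2 over 226 to 301 CPM.

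Collagens that decorate fibres (the FACIT class and its relatives) moved in both directions. COL9A2, a cartilage FACIT chain, had 5.88, 6.05, 3.49 and 7.14 CPM in day 7 b2 libraries against 13.8, 12.2 and 13.3 CPM in untreated b2 libraries, and 25.5 CPM in the day 7 b1 library against 34.8, 30.4 and 26.6 CPM in untreated b1 libraries. It fell by 0.85 ± 0.19 (adjusted p 0.00404), and the day 7 library of b1 lay just under the lowest untreated one. COL22A1, known from tissue junctions, rose by 0.84 ± 0.25 from low levels, 5.62, 7.20, 4.88 and 8.48 CPM at day 7 in b2 against 1.94, 2.73 and 4.68 CPM untreated (adjusted p 0.024). In b1 it had 7.17 CPM at day 7 against 5.46 to 6.21 CPM untreated, a smaller difference. Its adjusted p was 0.106 without untreated b2-1, 0.0951 without untreated b2-2 and 0.0664 without day 7 b2-20. COL12A1, COL16A1 and COL9A3 did not pass.

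Of 4 tested collagens of the transmembrane, multiplexin and anchoring classes, 3 rose, where 8.43% of all genes did. COL7A1, the chain of the anchoring fibrils under epithelia, had 70.0, 75.2, 75.9 and 74.0 CPM in day 7 b2 libraries against 56.1, 68.0 and 60.1 CPM in untreated b2 libraries, and 232 CPM in the day 7 b1 library against 135, 136 and 133 CPM in untreated b1 libraries. The change was 0.45 ± 0.09 (adjusted p 0.00145), the day 7 values lay above the untreated values within each tag, and b1 stood above b2 throughout. COL18A1, the precursor of endostatin, had 84.8, 73.5, 72.4 and 80.1 CPM at day 7 in b2 against 66.0, 62.7 and 73.1 CPM untreated, and 85.3 CPM at day 7 in b1 against 46.3, 39.8 and 54.5 CPM untreated. Its change of 0.39 ± 0.11 (adjusted p 0.0144) was 0.23 with an adjusted p of 0.125 without the day 7 b1 library. An exon of SLC19A1 lies on the opposite strand within the last 1000 bases of COL18A1, SLC19A1 changed by 0.52 ± 0.12 (adjusted p 0.00591), and, as no source here states whether counting used strand, reads of that pair cannot be told apart. COL17A1, a hemidesmosome collagen, rose by 1.74 ± 0.40 (adjusted p 0.00446) at levels of 2.67, 3.17, 2.62 and 2.23 CPM in day 7 b2 libraries against 0.971, 0.364 and 0.720 CPM in untreated b2 libraries. In b1 it had 1.59 CPM at day 7, from 4 UMIs, against 0.390 to 0.887 CPM untreated. COL13A1, a transmembrane collagen, did not pass (0.04 ± 0.12).

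CRTAP and SERPINH1 handle procollagen in the endoplasmic reticulum. CRTAP, a subunit of the prolyl 3-hydroxylation complex, had 131, 132, 126 and 126 CPM in day 7 b2 libraries against 122, 107 and 97.6 CPM in untreated b2 libraries, and 244 CPM in the day 7 b1 library against 177, 190.2 and 179 CPM in untreated b1 libraries. It rose by 0.30 ± 0.07 (adjusted p 0.00679), with no overlap within either tag, and the adjusted p was 0.0534 in b2 libraries alone. An exon of AC112211.1 lies on the opposite strand within the last 1000 bases of CRTAP, and reads of that pair cannot be told apart either. SERPINH1, the collagen chaperone HSP47, did not pass (-0.14 ± 0.07) and ranged over 182 to 517 CPM.

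Of 5 lysyl oxidases, LOX, LOXL1 and LOXL3 fell and LOXL2 and LOXL4 did not pass, where 7.28% of all genes fell. LOX had 101, 98.5, 112 and 118 CPM in day 7 b2 libraries against 172, 156 and 181 CPM in untreated b2 libraries, and 73.7 CPM in the day 7 b1 library against 109, 109.9 and 123 CPM in untreated b1 libraries. LOXL1, which crosslinks elastin, had 109, 101, 99.5 and 103 CPM at day 7 in b2 against 168, 180.4 and 186 CPM untreated, and 232 CPM at day 7 in b1 against 313, 297 and 288 CPM untreated. LOX changed by -0.65 ± 0.08 (adjusted p 3.02e-06) and LOXL1 by -0.65 ± 0.08 (adjusted p 2.82e-06), each with day 7 below untreated in both tags. LOXL3 had 37.7, 30.8, 31.8 and 26.3 CPM at day 7 in b2 against 42.5, 46.1 and 48.6 CPM untreated, and 39.9 CPM at day 7 in b1 against 45.8, 56.1 and 56.3 CPM untreated, a change of -0.49 ± 0.10 (adjusted p 0.00222). The last 1000 bases of LOXL3 overlap an exon of HTRA2 on the other strand, which gave 0.20 ± 0.07 and did not pass (adjusted p 0.0745). LOXL2, the most abundant member of the family by UMIs in the day 7 table, ranged over 274 to 583 CPM with a change of 0.18 ± 0.08 (adjusted p 0.152). LOXL4 stayed under 20 CPM (-0.02 ± 0.20).

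Elastic fibres are built on a scaffold of fibrillin microfibrils, with fibulins as linkers. Of 7 tested members of this class 5 fell, where 7.28% of all genes did. FBN1, the main fibrillin, had 205, 178, 196 and 186 CPM in day 7 b2 libraries against 288, 271 and 270.1 CPM in untreated b2 libraries, and 72.1 CPM in the day 7 b1 library against 129.6, 139 and 122 CPM in untreated b1 libraries. FBN1 changed by -0.61 ± 0.07 (adjusted p 4.71e-06), with no overlap in either tag. FBLN2 had 58.0, 61.9, 65.1 and 65.1 CPM at day 7 in b2 against 98.8, 100.2 and 98.0 CPM untreated, and 77.3 CPM at day 7 in b1 against 109, 127 and 122 CPM untreated. It changed by -0.65 ± 0.08 (adjusted p 2.82e-06), and the values within b2 and b1 were close, at -0.66 ± 0.08 and -0.62 ± 0.14. FBLN1 had 73.8, 55.3, 59.1 and 62.2 CPM at day 7 in b2 against 81.6, 79.8 and 79.6 CPM untreated, and 195 CPM at day 7 in b1 against 212, 205 and 214 CPM untreated. Its change was -0.28 ± 0.08 (adjusted p 0.0222). The adjusted p of FBLN1 was 0.0700 without untreated b2-1, 0.0629 without untreated b2-2, 0.0537 without untreated b2-4, 0.0614 without day 7 b2-18 and 0.0531 without day 7 b2-19. FBLN7 (-0.69 ± 0.18, adjusted p 0.00899) and MFAP5, a microfibril component (-1.66 ± 0.28, adjusted p 0.000345), fell at levels that stayed under 20 CPM. MFAP5 had 2.94, 3.17, 1.92 and 1.34 CPM at day 7 in b2 against 9.22, 7.83 and 5.40 CPM untreated, and 1.59 CPM at day 7 in b1 against 2.338 to 4.435 CPM untreated. FBN2, the fibrillin best known from development, ranged over 19.0 to 44.4 CPM and did not pass (-0.36 ± 0.16).

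MFAP4, a microfibril-associated protein that binds elastin and collagen, did not pass with both tags in the fit (-0.73 ± 0.24, adjusted p 0.063). It had 24.1, 17.0, 19.7 and 15.4 CPM in day 7 b2 libraries against 44.9, 39.9 and 45.4 CPM in untreated b2 libraries, and 50.2 CPM in the day 7 b1 library against 46.1, 41.3 and 39.0 CPM in untreated b1 libraries. In b2 the day 7 libraries lay far below the untreated ones, and in b1 the day 7 library lay above them. MAPK7 has an exon on the opposite strand within the last 1000 bases of MFAP4, and its own changes were 0.13 ± 0.08 at day 7 and -0.06 ± 0.08 for day 7 against day 3.

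Of 4 proteoglycans, BGN fell and AGRN, HSPG2 and VCAN did not pass. BGN, a small leucine-rich proteoglycan that binds collagen, lies on chrX:153494939-153509554. It had 111, 119, 112 and 109 CPM in day 7 b2 libraries against 228, 239.6 and 240.2 CPM in untreated b2 libraries, and 147 CPM in the day 7 b1 library against 201, 212 and 207 CPM in untreated b1 libraries. All day 7 values lay below all untreated values. The change was -0.89 ± 0.08 (adjusted p 1.11e-07), a 1.86-fold fall. HSPG2, the perlecan of basement membranes, ranged over 94.6 to 120.2 CPM (-0.16 ± 0.07), VCAN, the large chondroitin sulfate proteoglycan of brain matrix, over 25.9 to 78.4 CPM (-0.30 ± 0.15), and AGRN, the agrin of synapses and basement membranes, over 9.71 to 29.6 CPM (-0.02 ± 0.16).

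Glycoproteins and matricellular proteins divided, with 2 falling and 1 rising of 7 tested. FN1, fibronectin, was the most abundant member and had 927, 739.6, 861 and 931 CPM in day 7 b2 libraries against 1122, 1032 and 1077 CPM in untreated b2 libraries, and 627 CPM in the day 7 b1 library against 1059, 1106 and 1111 CPM in untreated b1 libraries. FN1 fell by 0.46 ± 0.08 on the log2 scale (adjusted p 0.000767), with no overlap in either tag. TNC, tenascin-C, a matrix protein of developing brain and wounds, had 209, 182, 212 and 204 CPM at day 7 in b2 against 155, 143 and 145 CPM untreated, and 186 CPM at day 7 in b1 against 115, 119 and 118 CPM untreated. It rose by 0.52 ± 0.07 (adjusted p 1.81e-05), and all day 7 values lay above all untreated values. THBS1, thrombospondin 1, had 3.21, 4.32, 5.76 and 3.35 CPM at day 7 in b2 against 5.58, 6.92 and 7.92 CPM untreated, and 3.59 CPM at day 7 in b1 against 11.8, 10.1 and 9.54 CPM untreated. THBS1 changed by -0.85 ± 0.22 (adjusted p 0.0105), and by -0.64 with an adjusted p of 0.0778 without the day 7 b1 library. SPARC, osteonectin, ranged over 503 to 812 CPM (-0.08 ± 0.06), THBS2 over 26.8 to 63.0 CPM (-0.08 ± 0.10) and THBS3 over 27.0 to 50.6 CPM (-0.04 ± 0.12), and none of these passed, nor did THBS4.

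**Figure D2:**
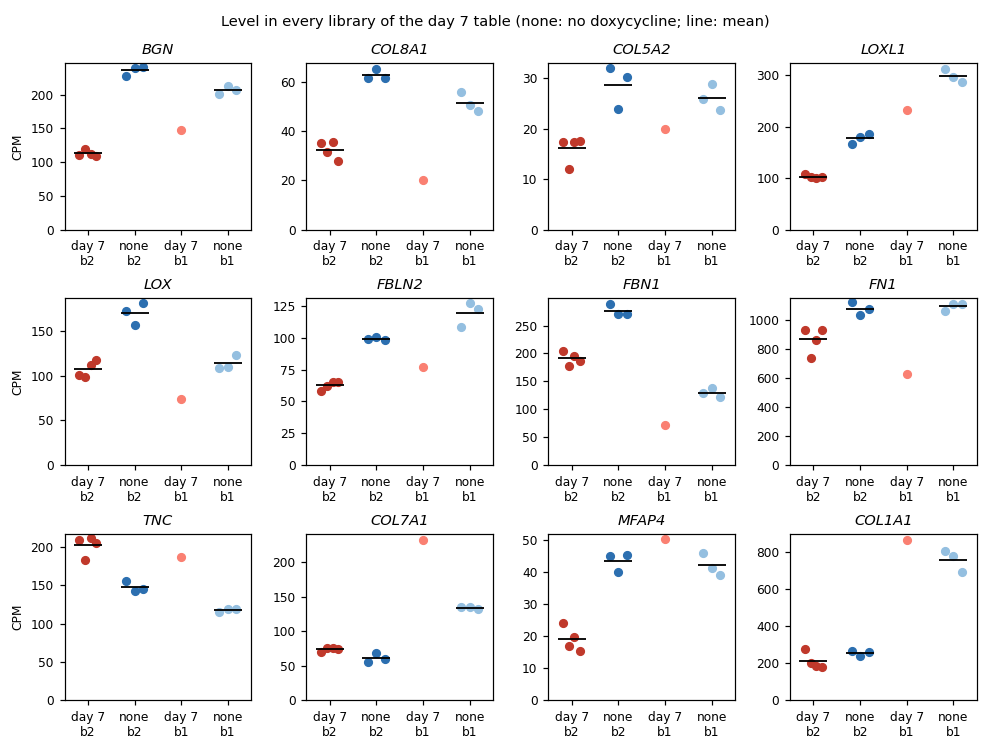
CPM (y axes, from 0) of 12 matrix genes in each library of the day 7 table, with a line at the mean of groups of more than 1 library; within each tag day 7 stands left of no doxycycline. BGN, COL8A1 and TNC separate day 7 from untreated libraries in both tags, while MFAP4 does so downward in b2 alone and COL1A1 differs mainly between the tags.

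The remaining 7 members of the day 7 table were too low to test: COL3A1, COL5A3, FBLN5, POSTN, MFAP2, MFAP3 and MFAP3L stayed at or under 3.59 CPM in each of its libraries. MFAP1, a splicing-associated protein despite its symbol, had 35.6 to 59.9 CPM and did not pass at day 7 (-0.06 ± 0.11).

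The day 3 libraries, all b2, ask which of these changes had begun by then. From the day 3 and day 7 table, 44 members were tested and 10 were too low to test, and 3 were called at day 3 against no doxycycline, where 3.51% of 10586 genes were called. The members' median log2 change was -0.02, against 0.00 over all genes. An unadjusted p under 0.05 was reached by 11 members. TNC rose, with 64.8, 71.3, 68.0 and 73.5 CPM at day 3 against 55.3, 47.2 and 40.0 CPM untreated, and COL8A2 fell, with 13.5, 19.4, 14.0 and 15.8 CPM at day 3 against 28.3, 26.3 and 28.3 CPM untreated. LOXL1 fell too, with 153, 186, 178 and 168 CPM at day 3 against 211, 223 and 230.5 CPM untreated. The groups did not overlap for any of the 3, and the changes were 0.54 ± 0.11 for TNC (adjusted p 0.00326), -0.79 ± 0.15 for COL8A2 (0.0026) and -0.37 ± 0.08 for LOXL1 (0.00453). COL8A1 had an adjusted p of 0.0557 at -0.63 ± 0.17, with 51.3, 34.0, 45.0 and 34.8 CPM at day 3 against 61.3, 66.4 and 60.0 CPM untreated. The count of called members was 5 without day 3 b2-9 and 5 without day 7 b2-17.

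Day 7 was then set against day 3. Of the 44 members, 14 were called for day 7 against day 3, where 5.07% of all genes were called, and 13 of them fell, against 2.31% of all genes. The median log2 change was -0.25 over the members and 0.01 over all genes. BGN, COL5A1, COL5A2, COL4A1, COL4A2, FBLN1, FBLN2, MFAP4, FN1, SPARC, THBS2, LOXL1 and LOXL3 fell, and COL7A1 rose. The 4 day 7 libraries of this test are also the b2 libraries of the day 7 test above, so the results of these tests are not independent.

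BGN had 279.9, 296 and 293 CPM untreated, 256, 268, 286 and 286 CPM at day 3 and 136, 146, 138 and 128 CPM at day 7. It changed by -0.08 ± 0.07 at day 3 (adjusted p 0.617) and by -1.0 ± 0.07 for day 7 against day 3 (adjusted p 1.41e-11). MFAP4 had 55.0, 48.8 and 55.7 CPM untreated, 48.4, 50.4, 58.5 and 56.1 CPM at day 3 and 29.5, 20.5, 24.2 and 18.0 CPM at day 7, with changes of 0.02 ± 0.12 and -1.22 ± 0.13 (adjusted p 1.09e-07 for the second). For both genes the day 3 range overlapped the untreated one and the day 7 libraries lay below. FBLN2 had 124, 128 and 123 CPM untreated, 102, 125, 131 and 109 CPM at day 3 and 72.7, 77.5, 82.3 and 76.3 CPM at day 7, and changed by -0.60 ± 0.08 for day 7 against day 3 (adjusted p 1.63e-05). LOXL1 moved at each step, with 138, 124, 124 and 124 CPM at day 7 against the day 3 values above (-0.43 ± 0.07, adjusted p 0.000298).

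COL5A1 had 78.2, 64.8 and 69.6 CPM untreated, 71.0, 86.3, 98.2 and 103 CPM at day 3 and 62.6, 59.0, 67.3 and 63.3 CPM at day 7. Its change was 0.35 ± 0.11 at day 3 (adjusted p 0.0702) and -0.51 ± 0.10 for day 7 against day 3 (adjusted p 0.0016). Its day 3 libraries had the highest mean of the 3 groups. COL5A2 had 31.5, 21.6 and 26.5 CPM untreated, 25.4, 34.4, 24.3 and 24.5 CPM at day 3 and 20.1, 11.5, 16.1 and 15.6 CPM at day 7 (-0.78 ± 0.17 for day 7 against day 3, adjusted p 0.00428). COL7A1 had 60.7, 65.9 and 61.3 CPM untreated, 59.1, 58.5, 59.0 and 68.3 CPM at day 3 and 84.7, 84.4, 81.5 and 82.3 CPM at day 7, and rose by 0.44 ± 0.09 after day 3 (adjusted p 0.00162).

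Smaller falls after day 3 were found for the basement membrane chains. COL4A1 had 227, 206 and 190.5 CPM untreated, 179, 219.7, 222 and 227 CPM at day 3 and 167, 170.2, 176 and 176 CPM at day 7. COL4A2 had 346, 368 and 409 CPM untreated, 406, 385, 346 and 403 CPM at day 3 and 335, 314, 306 and 346 CPM at day 7. The day 7 against day 3 changes were -0.30 ± 0.08 (adjusted p 0.0148) and -0.24 ± 0.07 (adjusted p 0.0335), and the ratio of COL4A1 to COL4A2 UMIs stayed at 0.44 to 0.657 over the 3 groups. The adjusted p of COL4A1 was 0.0548 without day 3 b2-10, 0.0518 without day 3 b2-11 and 0.0736 without day 3 b2-12. That of COL4A2 was 0.0742 without day 3 b2-10, 0.117 without day 3 b2-12, 0.111 without day 3 b2-9, 0.0917 without day 7 b2-18 and 0.101 without day 7 b2-19.

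The other 5 genes that fell after day 3 were spread over the classes. FN1 had 1299, 1200.0 and 1231 CPM untreated, 1207, 1145, 1149 and 1227 CPM at day 3 and 1083, 839.5, 992 and 1035 CPM at day 7 (-0.26 ± 0.07 for day 7 against day 3, adjusted p 0.0213). SPARC had 156, 149 and 167 CPM untreated, 167, 151, 153 and 174 CPM at day 3 and 126, 116, 133 and 138 CPM at day 7 (-0.32 ± 0.08, adjusted p 0.00826). THBS2 had 37.5, 35.6 and 34.4 CPM untreated, 36.0, 44.2, 37.8 and 41.5 CPM at day 3 and 32.5, 26.1, 30.8 and 30.5 CPM at day 7 (-0.42 ± 0.11, adjusted p 0.0225). In these 3 genes the day 7 libraries were the lowest of the 3 groups. For SPARC the day 7 table did not show this. There the same b2 libraries had 503 to 560.7 CPM at day 7 against 529.1 to 560.7 CPM untreated, a log2 change of -0.025. FBLN1 had 97.6, 93.3 and 94.4 CPM untreated, 96.9, 95.4, 97.3 and 89.7 CPM at day 3 and 88.6, 64.6, 69.8 and 71.4 CPM at day 7 (-0.37 ± 0.09, adjusted p 0.0124). LOXL3 had 34.2, 40.3 and 40.9 CPM untreated, 32.7, 36.2, 42.8 and 39.1 CPM at day 3 and 32.5, 25.4, 26.7 and 21.6 CPM at day 7 (-0.52 ± 0.13, adjusted p 0.0136). Single libraries decided several of these calls: FN1 without day 3 b2-12 (adjusted p 0.0765), day 3 b2-9 (0.0626) or day 7 b2-18 (0.105), SPARC without day 3 b2-12 (0.0503), FBLN1 without day 7 b2-18 (0.0524), and LOXL3 without day 3 b2-11 (0.0627) or day 7 b2-20 (0.0574). THBS2 lost its call without day 3 b2-10 (0.102), day 3 b2-12 (0.0719) or day 7 b2-18 (0.0716), and with DESeq2 (0.0632). The number of called members was 9 without day 3 b2-12.

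TNC and COL8A2, which had moved by day 3, gave 0.00 ± 0.10 and -0.14 ± 0.16 for day 7 against day 3, with 95% intervals of -0.20 to 0.20 and -0.47 to 0.18. All members together took 0.558% to 0.574% of UMIs untreated, 0.52% to 0.543% at day 3 and 0.431% to 0.475% at day 7, and these ranges did not overlap. The fibroblast and pericyte markers summed to 1680 to 1820 CPM untreated, 1420 to 1500 CPM at day 3 and 1030 to 1160 CPM at day 7 in the same table, and their part in these changes was not tested. Of these markers, THY1 had 477 to 630 CPM in this table and 35.9 to 280 CPM in the day 7 table. The marker sums are therefore not compared between the tables.

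**Figure D3:**
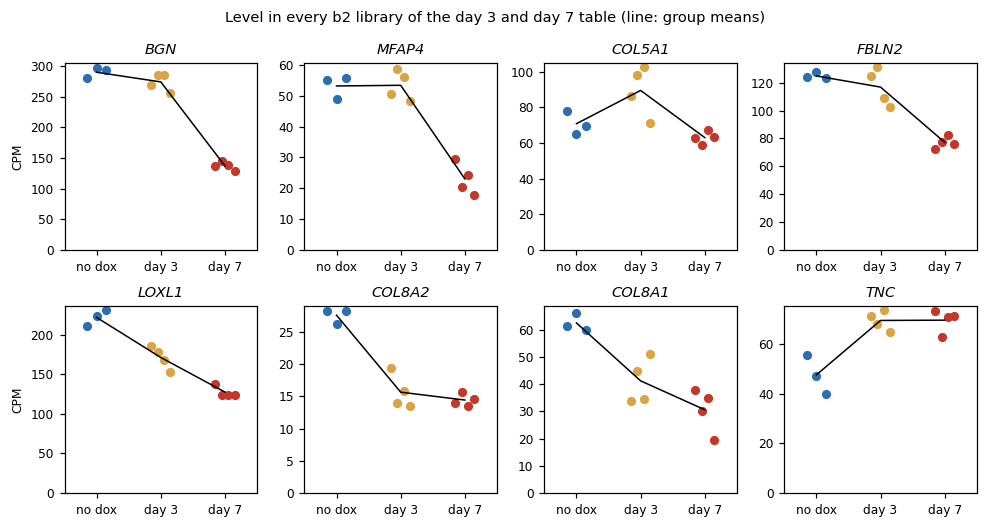
CPM (y axes, from 0) of 8 matrix genes in each b2 library of the day 3 and day 7 table, without doxycycline, at day 3 and at day 7, with a line through the group means. In BGN and MFAP4 day 3 overlaps the untreated libraries and day 7 lies below both, while COL8A2 and TNC differ from untreated cells by day 3.

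The day 7 change was next read within each tag, from a fit of the 4 groups. Within b2, 24 members were called, 19 of them lower, where 15.7% of all genes were called. Within b1, with its single day 7 library, 16 members were called, 10 of them lower, where 7.51% of all genes were called. The b1 values compare 1 library with 3 and assume that it varies like the other groups. COL8A2, called with both tags in the fit, gave -0.95 ± 0.14 in b2 and 0.01 ± 0.26 in b1.

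A test of the difference between the tags called 7 members, where 2.64% of all genes were called, and in all 7 the b2 change was the lower, as for 1.12% of all genes. With DESeq2, library size alone or no filter, at least 1 called member had the higher change in b2. The same held without untreated b2-1 and without day 7 b2-17, b2-18 or b2-20. The day 7 b1 library had the lowest TMM factor of its table, 0.9084. The median difference over all genes was 0.0107 with TMM and 0.09 with library size alone, and the part of scaling in the shared direction was not tested. For 4 of the 7 the sign differed between the tags. MFAP4 gave -1.18 ± 0.13 in b2 and 0.25 ± 0.19 in b1, a difference of -1.43 ± 0.23 (adjusted p 0.000442). COL4A1 gave -0.30 ± 0.08 in b2 and 0.34 ± 0.12 in b1, a difference of -0.63 ± 0.14 (adjusted p 0.0143). COL6A1, with 354, 313, 333 and 336 CPM at day 7 in b2 against 346, 341 and 381 CPM untreated, and 539 CPM at day 7 in b1 against 364, 336 and 346 CPM untreated, gave -0.09 ± 0.07 in b2 and 0.63 ± 0.10 in b1 (difference -0.72 ± 0.12, adjusted p 0.00108). COL6A2 gave -0.24 ± 0.07 in b2 and 0.24 ± 0.11 in b1 (difference -0.49 ± 0.13, adjusted p 0.047). COL16A1, a fibre-associated collagen, gave 0.00 ± 0.16 in b2 and 1.08 ± 0.24 in b1 (difference -1.08 ± 0.28, adjusted p 0.0349). BGN fell in both, with -1.06 ± 0.07 in b2 and -0.49 ± 0.11 in b1 (difference -0.58 ± 0.13, adjusted p 0.014), and COL7A1 rose in both, by 0.26 ± 0.09 in b2 and 0.79 ± 0.12 in b1 (difference -0.53 ± 0.15, adjusted p 0.0456). All of these rest on 1 day 7 library of b1, and 3 lost the call without single libraries: COL16A1 without untreated b2-2, b2-4, b1-2, b1-3 or day 7 b2-18 or b2-19 (adjusted p 0.0552 to 0.113), COL6A2 without untreated b2-1, b2-2, b2-4, b1-2, b1-3 or day 7 b2-18, b2-19 or b2-20 (0.0509 to 0.131), and COL7A1 without untreated b2-2, b2-4, b1-1, b1-2, b1-3 or day 7 b2-18, b2-19 or b2-20 (0.0518 to 0.150). COL7A1 was also not called with DESeq2 (0.0676), limma-voom (0.0635), library size alone (0.105) or no filter (0.0595), COL6A2 with limma-voom (0.0690), library size alone (0.105) or no filter (0.0619), and COL16A1 with library size alone (0.0514). The count was 12 without day 7 b2-17, and 4 without untreated b2-2, untreated b2-4, untreated b1-2 or day 7 b2-19.

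**Figure D4:**
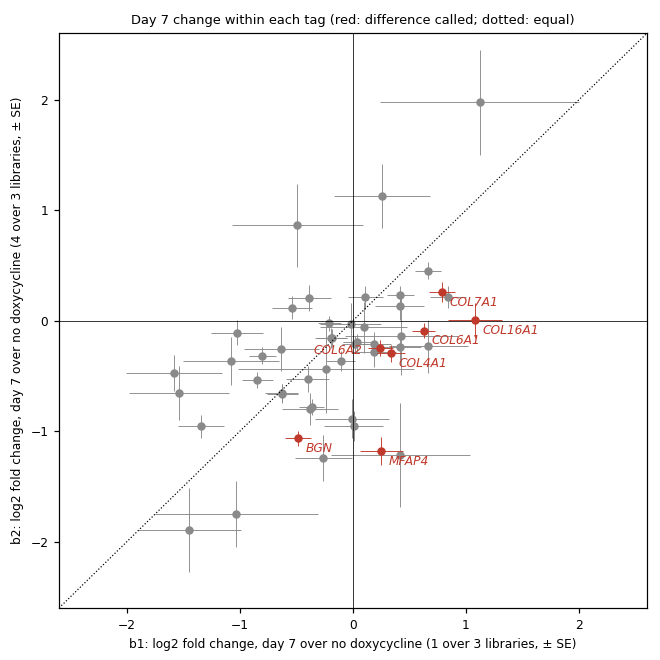
Log2 fold change at day 7 over no doxycycline in b2 (y axis) and in b1 (x axis) for the 50 tested matrix genes, with standard errors; the dotted line marks equal changes and red marks the 7 genes whose difference was called. Those 7 lie below the line, among them MFAP4 at -1.18 in b2 and 0.25 in b1.

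Untreated cells of the tags already differed in most matrix genes. Between untreated b2 and untreated b1, 32 of 50 members were called, 13 higher and 19 lower in b2, where 46.6% of all genes were called. Higher in untreated b2 were MFAP5 (1.21 ± 0.31), FBN1 (1.09 ± 0.08), COL8A2 (1.0 ± 0.15), COL6A3 (0.71 ± 0.18), FBLN7 (0.64 ± 0.19), COL4A2 (0.61 ± 0.09), LOX (0.57 ± 0.09), COL4A1 (0.52 ± 0.08), COL18A1 (0.49 ± 0.11), TNC (0.33 ± 0.08), COL8A1 (0.29 ± 0.11), COL6A2 (0.21 ± 0.08) and BGN (0.19 ± 0.07). Lower were COL1A1 (-1.57 ± 0.15), COL11A1 (-1.50 ± 0.27), FBLN1 (-1.39 ± 0.09), COL4A6 (-1.27 ± 0.39), COL9A2 (-1.23 ± 0.17), COL7A1 (-1.12 ± 0.09), SERPINH1 (-1.07 ± 0.08), COL22A1 (-1.02 ± 0.32), LOXL2 (-0.89 ± 0.11), AGRN (-0.87 ± 0.19), LOXL1 (-0.75 ± 0.08), CRTAP (-0.73 ± 0.08), THBS1 (-0.64 ± 0.23), THBS2 (-0.63 ± 0.11), COL5A1 (-0.61 ± 0.10), COL13A1 (-0.55 ± 0.12), SPARC (-0.53 ± 0.07), MFAP1 (-0.50 ± 0.11) and FBLN2 (-0.27 ± 0.09). Of all genes, 23.4% were called higher and 23.2% lower in untreated b2. Of the classes, 4 of 6 network and basement membrane collagens were higher in untreated b2, and both chaperones were lower in it. COL13A1 had 24.3, 32.2 and 34.9 CPM in untreated b2 against 43.4, 45.6 and 44.1 CPM in untreated b1 libraries. SERPINH1 had 234, 222 and 246 CPM in untreated b2 against 517, 488 and 473 CPM in untreated b1 libraries, and LOXL2 had 322, 279 and 274 CPM against 548, 547 and 526 CPM. BGN, COL6A2, COL8A1, FBLN2, FBLN7, COL22A1 and THBS1 were not called without 1 or more single libraries: BGN without untreated b2-2, b2-4, b1-1, b1-2, b1-3 or day 7 b1-13 (adjusted p 0.0522 to 0.154), COL6A2 without untreated b2-2, b2-4, b1-2 or day 7 b1-13 (0.0535 to 0.212), COL8A1 without untreated b2-2, b1-2 or b1-3 (0.0703 to 0.135), FBLN2 without untreated b1-2 or b1-3 (0.0553 to 0.0728), THBS1 without untreated b2-1, b2-2 or b1-1 (0.0585 to 0.113), FBLN7 without untreated b1-1 (0.0546) and COL22A1 without untreated b2-1 (0.0648). With DESeq2, COL4A6 (adjusted p 0.0555), COL6A2 (0.0621), BGN (0.0728), COL8A1 (0.109) and THBS1 (0.129) were not called. BGN (0.0574) and COL6A2 (0.0520) were not called with no filter, nor FBLN2 with library size alone (0.0736). Without the tag as a term 9 members were called at day 7, 2 higher and 7 lower.

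The tables share 7 b2 libraries, day 7 b2-17 to b2-20 and untreated b2-1, b2-2 and b2-4, but not their counts. Of 54 members with at least 20 UMIs in either table, 39 agreed within 1.5-fold and 14 (25.9%) differed over 2-fold, against 18.8% of 11406 genes. FBN1 had 222 UMIs over the 7 libraries in the day 3 and day 7 table against 6762 in the day 7 table, CRTAP 304 against 3599, LOX 407 against 3957, SPARC 3456 against 15932, TNC 1503 against 5371 and VCAN 594 against 1851. The other way, AGRN had 3915 against 372 and MFAP3 337 against 21. In single libraries, FBN1 in the day 3 and day 7 table was 1.44% to 5.36% of its day 7 table count, and SPARC 17.9% to 24.7%.

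The day 7 changes in b2 were set side by side from each table's counts. BGN gave -1.08 ± 0.07 in the day 3 and day 7 table and -1.06 ± 0.07 in the day 7 table, COL8A1 -1.04 ± 0.17 and -0.95 ± 0.10, and TNC 0.54 ± 0.10 and 0.45 ± 0.07. SPARC was called in the day 3 and day 7 table (-0.29 ± 0.08, adjusted p 0.0122) and not in the day 7 table (-0.03 ± 0.07, adjusted p 0.84). FBN1 (-0.49 ± 0.25, adjusted p 0.193), LOX (-0.37 ± 0.19, adjusted p 0.213), CRTAP (0.29 ± 0.20, adjusted p 0.347) and COL18A1 (0.22 ± 0.12, adjusted p 0.258) were not called on the day 3 and day 7 table's counts. In that table LOX had 26 to 86 UMIs and FBN1 11 to 47 UMIs per library, so small changes of these genes were not detectable there at day 3.

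**Figure D5:**
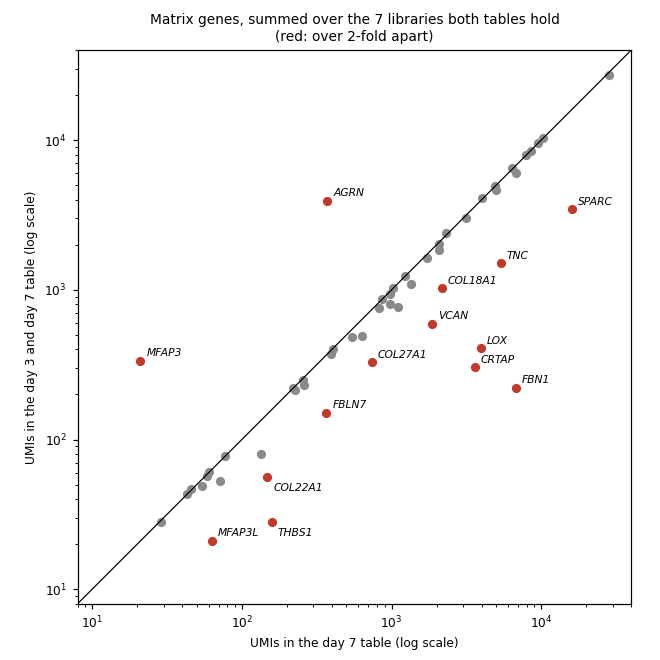
UMIs of 54 matrix genes summed over the 7 libraries that both tables hold, day 3 and day 7 table (y axis) against day 7 table (x axis), both on log scales; the line marks equal counts and red the 14 genes over 2-fold apart. FBN1, CRTAP, LOX and SPARC lie below the line, AGRN and MFAP3 above it, and most others on it.

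Genes that process collagen or build the sugar chains of proteoglycans were read beside the matrix genes. Of all genes tested, 15.7% were called at day 7, 3.51% at day 3 and 5.07% for day 7 against day 3. At day 3 and for day 7 against day 3, 0 or 1 called among 11 to 16 genes is near those shares. Of 16 tested genes of collagen hydroxylation, glycosylation and folding, many of them alpha-ketoglutarate-dependent, edgeR called 0 at day 7, with 1 at an unadjusted p under 0.05 and 0 by DESeq2 or limma-voom. At day 3 edgeR called 0 of 16, with 4 at an unadjusted p under 0.05, 0 by DESeq2 and 1 by limma-voom. P4HA1, a collagen prolyl 4-hydroxylase subunit, fell for day 7 against day 3 (-0.52 ± 0.12, adjusted p 0.00942). Of 13 tested genes of procollagen export and propeptide cleavage, edgeR called 0 at day 7, with 1 at an unadjusted p under 0.05 and 0 by DESeq2 or limma-voom. For 11 of them in the other table edgeR called 0 at day 3, with 3 at an unadjusted p under 0.05, and 0 for day 7 against day 3, with 1 at that p, and the other tools called 0 in each.

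Of 27 tested genes of glycosaminoglycan chain synthesis, CHST11, a chondroitin 4-sulfotransferase, rose at day 7 (0.65 ± 0.18, adjusted p 0.0156), as did B3GAT3, which completes the linker sugar (0.31 ± 0.10, adjusted p 0.0451), and none fell. Of all genes 8.43% rose, so a count of 2 in 27 is near the background. At day 3 edgeR called 0 of 27, with 5 at an unadjusted p under 0.05 and 0 by DESeq2 or limma-voom. CHST11 rose for day 7 against day 3 as well (0.68 ± 0.19, adjusted p 0.0295). Of 12 other proteoglycans tested, CD44, the hyaluronan receptor (0.40 ± 0.07, adjusted p 0.000615), and SDC1, syndecan 1 (0.28 ± 0.07, adjusted p 0.00519), rose at day 7, and CSPG4 (-0.40 ± 0.09, adjusted p 0.00294) and SPOCK1 (-0.38 ± 0.12, adjusted p 0.0303) fell, where 15.7% of all genes were called. At day 3 edgeR called 0 of 11, with 2 at an unadjusted p under 0.05 and 0 by DESeq2 or limma-voom. For day 7 against day 3, SDC1 rose (0.29 ± 0.06, adjusted p 0.00414) and CSPG4 (-0.39 ± 0.08, adjusted p 0.00475) and GPC1 (-0.34 ± 0.10, adjusted p 0.0362) fell, where 5.07% of all genes were called.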

How the data were processed

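RNA was captured in barcoded reverse transcription, pooled and amplified with T7 polymerase, per the labels' protocols. Per the submitters' processing notes, bcl2fastq, cutadapt, STAR 2.4.2a, HTSeq, DESeq2 and hg38 were used. No source here states whether counting used strand. The authors deposited 2 tables of raw UMI counts per gene beside normalized values that were not used. Each has 11 libraries here, and 55 other per-sample columns were left out. Each listed gene reached a count of 6 in some library. Columns X1 and X2 of the day 3 and day 7 table were taken as untreated b2-1 and b2-2, since their labels are shared with b1 while every other column there is b2.

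Counts were tested with edgeR 4.0.16 (R 4.3.3), with TMM scaling, filterByExpr, a quasi-likelihood fit and an adjusted p of 0.05. The day 7 table was fitted with the tag as a term, and as 4 groups for the tag contrasts. The day 3 and day 7 table was fitted as 3 groups. DESeq2 1.42.0, limma-voom (limma 3.58.1), other scalings and filters, and leaving out each library were alternatives. Scripts were tested on simulated data. The biological coefficient of variation was 0.0991 and 0.0843. Counting error limits genes of few UMIs. Gene spans came from GENCODE 29 and promoters from RefSeq (GRCh38.p14). Exons of another gene lay within the last 1000 bases of 11 members: AGRN, COL9A3, COL18A1, CRTAP, HSPG2, LOXL3, MFAP3, MFAP4, MFAP5, THBS4 and VCAN. For AGRN and MFAP3 that exon was on the same strand. Values in each library are given for members called and reaching 20 CPM. The members and lists were chosen with earlier results of these data known. Figures used matplotlib 3.10.9.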

Additional observations from a re-analysis of the deposited data

Results flagged for a closer look

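In 7 of 85 groups of 4 libraries, 1 library stood apart from the other 3, and chance flags about 1 in 20 groups. COL5A2 had 12.1 CPM in day 7 b2-18 of the day 7 table, with the others at 17.38 to 17.62 CPM. In the day 3 and day 7 table, COL5A2 had 34.36 CPM in day 3 b2-10, with the others at 24.32 to 25.35 CPM. COL6A3 had 9.873 CPM and COL7A1 68.32 CPM in day 3 b2-12. COL4A1 had 178.6 CPM in day 3 b2-9. LOXL1 had 137.6 CPM in day 7 b2-17, and MFAP5 had 3.126 CPM in day 7 b2-18, with the others at 1.273 to 1.303 CPM.

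The log2 change at day 7 differed between b2 and b1 by a test of the difference in 7 members. The b2 change minus the b1 change was -1.434 for MFAP4, -1.078 for COL16A1, -0.7184 for COL6A1, -0.6343 for COL4A1, -0.5776 for BGN, -0.5308 for COL7A1 and -0.4862 for COL6A2. The b1 side rests on a single day 7 library.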

How the results depend on the processing

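Without the tag as a term, 316 genes and 9 matrix genes were called at day 7, and limma-voom called 210 genes for the difference between the tags. Leaving out 1 library at a time gave 1405 to 1970 genes and 21 to 24 matrix genes at day 7, 191 to 578 and 3 to 5 at day 3, 387 to 645 and 9 to 16 for day 7 against day 3, 5049 to 6189 and 28 to 32 for untreated b2 against untreated b1, and 197 to 684 and 4 to 12 for the difference between the tags. With a replicate block over b1-1, b1-2, b2-1 and b2-2, 5175 genes and 29 matrix genes were called between untreated b2 and b1. The deviations of same-numbered libraries correlated at 0.00638 and 0.00732. These values gave no sign of a pairing by number, but in groups of 3 libraries they cannot exclude it. The fit of those libraries without the block was chosen after seeing the data. Of the named genes' values, 791 kept their call and 71 lost it when 1 library was left out, and 554 kept it and 46 lost it under the other settings, with no reversal of sign in either. Day 7 in b1 has 1 library, which is assumed to vary like the other groups. Members of few UMIs have wide intervals.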
